A study of Mus musculus with 6 samples.

Results

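The early arm of cholesterol synthesis comprises the enzymes that carry acetyl-CoA to squalene epoxide. Its 9 genes *Acat2*, *Hmgcs1*, *Mvk*, *Pmvk*, *Mvd*, *Idi1*, *Fdps*, *Fdft1* and *Sqle* were taken by symbol from the gene count table, in the order of the reactions. They do not cover every reaction of the route. All 9 symbols were in the table, 8 had at least 1 count in any library, and 7 had enough counts to be tested.

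RNA-Seq had been performed on sciatic nerves at postnatal day 14, with 3 libraries of control mice carrying the genotype *Rnf40* fl/fl and 3 libraries of Rnf40ΔSC mice carrying *Dhh::Cre* in addition to *Rnf40* fl/fl. Per the labels all mice were on a mixed 129SvJ/C57Bl/6J background, whereas the methods of the study name C3H and C57Bl/6J. *Rnf40* encodes a subunit of the E3 ligase that places monoubiquitin on histone H2B, and *Dhh::Cre* is active in the Schwann cell lineage from late precursor stages onwards. Each library was made from a pool of 3 nerves, so that animals were not resolved and RNA of fibroblasts, endothelial cells, immune cells and adhering tissue was included.

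Cholesterol is built from acetyl-CoA in the cytosol and the endoplasmic reticulum. Acetyl-CoA units are condensed and reduced to mevalonate, which is phosphorylated and decarboxylated to isoprenoid diphosphates, and these are joined to farnesyl diphosphate and then to squalene, which is oxidised before it is cyclised to the first sterol. The genes of the route are classical targets of the sterol regulatory element binding proteins (SREBPs), which act together with NF-Y, and myelinating Schwann cells make most of the cholesterol of their myelin membranes themselves.

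Promoter windows of 250 bases before to 50 bases after an annotated start had been taken from RefSeq (build GRCm38.p6). The set of windows used here held 7 windows of 6 of the 9 genes. *Fdps*, *Fdft1* and *Sqle* had no window in this set, so that their promoters were not searched. The windows were searched on both strands for CCAAT, the letters bound by NF-Y, for TCACNCCAC, a core of the sterol regulatory element, and for GCGNGGGCG, a motif of the Egr family to which the myelination regulator Egr2 belongs. The windows of the 4 genes with more than 1 match are printed 5′ to 3′ on the strand of the gene, since these genes belong to one route and the tested ones among them fell together, with capitals marking matches of either motif on either strand. They lie at chr13:119690101-119690400 (plus strand) for *Hmgcs1*, at chr5:114444019-114444318 (plus strand) for *Mvk*, at chr8:122443373-122443672 (minus strand) for *Mvd* and at chr13:8885356-8885655 (plus strand) for *Idi1*.
Hmgcs1: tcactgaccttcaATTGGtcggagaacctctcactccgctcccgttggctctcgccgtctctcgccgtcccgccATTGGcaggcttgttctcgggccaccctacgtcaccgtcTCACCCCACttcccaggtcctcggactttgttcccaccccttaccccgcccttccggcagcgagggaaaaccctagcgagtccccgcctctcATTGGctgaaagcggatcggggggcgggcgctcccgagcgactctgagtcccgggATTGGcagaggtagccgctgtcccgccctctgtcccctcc
Mvk: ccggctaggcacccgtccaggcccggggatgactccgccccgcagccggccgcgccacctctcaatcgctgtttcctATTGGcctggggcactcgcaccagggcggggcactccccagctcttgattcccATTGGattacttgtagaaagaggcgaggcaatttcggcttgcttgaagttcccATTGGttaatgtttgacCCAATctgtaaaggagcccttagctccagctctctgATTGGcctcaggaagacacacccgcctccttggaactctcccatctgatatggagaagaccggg
Mvd: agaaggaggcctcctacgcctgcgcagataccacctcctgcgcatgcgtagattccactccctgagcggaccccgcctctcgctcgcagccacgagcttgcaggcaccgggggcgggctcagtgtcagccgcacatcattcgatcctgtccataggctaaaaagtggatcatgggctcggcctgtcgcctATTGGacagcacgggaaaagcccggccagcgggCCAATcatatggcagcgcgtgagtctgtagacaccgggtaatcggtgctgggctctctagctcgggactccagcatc
Idi1: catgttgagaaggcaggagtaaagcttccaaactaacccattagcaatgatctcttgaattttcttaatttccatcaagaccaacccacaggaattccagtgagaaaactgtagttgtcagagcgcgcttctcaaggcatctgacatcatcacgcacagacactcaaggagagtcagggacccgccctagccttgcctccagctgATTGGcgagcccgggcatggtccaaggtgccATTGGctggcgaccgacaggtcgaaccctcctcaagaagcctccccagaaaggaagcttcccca

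*Hmgcs1* held 4 matches of CCAAT and 1 of TCACNCCAC, the latter beginning at position -137 relative to the start. *Mvk* held 5 matches of CCAAT, at positions -173, -120, -67, -50 and -14. *Mvd* held 2, at positions -60 and -27, and *Idi1* held 2, at positions -45 and -14. Of the 2 windows of *Pmvk*, the one at chr3:89454291-89454590 had 1 match of CCAAT and the one at chr3:89459321-89459620 had none. In mm9 the *Pmvk* window with the match lies at chr3:89258213-89258512, before the gene annotated at chr3:89263040-89272935. The *Pmvk* window without a match lies within that gene, at chr3:89263243-89263542. The window of *Acat2* had no match of any motif. No match overlapped another. CCAAT thus occurred in 5 of the 7 windows, and 2 of the 7 had at least 4 matches. Of all 32851 windows in the table, 37.4% held CCAAT at least once, 11.7% at least 2 times and 1.06% at least 4 times. TCACNCCAC was found in 1 of the 7 windows and in 1.24% of all windows. GCGNGGGCG was found in 0 of the 7 and in 5.55% of all windows. A match describes these letters in the window, and binding of a factor was not measured here.

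**Figure D1:**
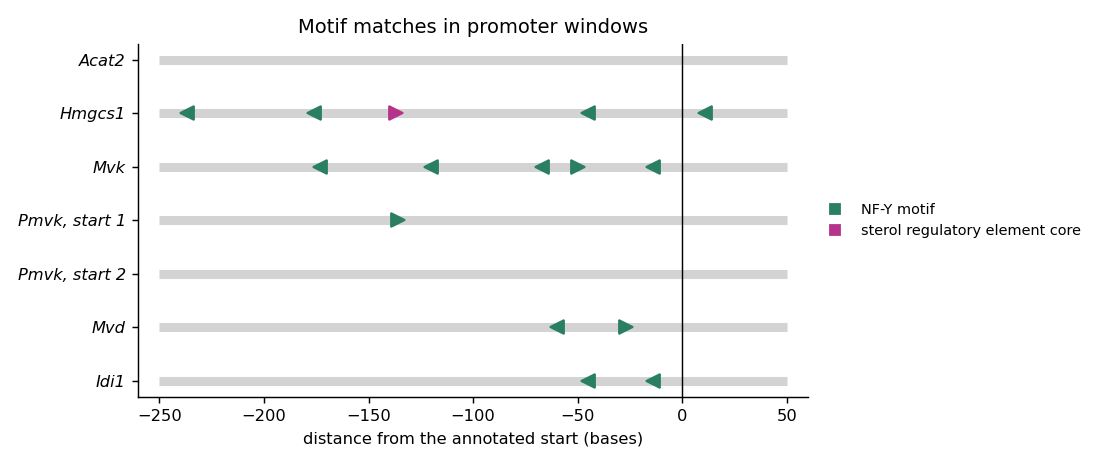
Positions of motif matches in the promoter windows of the early arm genes, as distance from the annotated start in bases, with arrowheads at the first base and along the strand of matches of CCAAT (green) and TCACNCCAC (magenta). The matches of *Mvk*, *Mvd* and *Idi1* lie before the start, and those of *Hmgcs1* lie between positions -237 and 11.

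Control replicates 1, 2 and 3 held 1317167, 1992622 and 2468765 counts assigned to genes. Rnf40ΔSC replicates 1, 2 and 3 held 2184268, 1459387 and 2186710, so that 1 count stood for 0.405 to 0.759 CPM, the count relative to the library total. In the following, normalized counts are those after TMM scaling to equal library sizes, and the log2 fold change compares Rnf40ΔSC with control libraries. A gene was called when the adjusted p of edgeR's quasi-likelihood test was at most 0.05, the log2 fold change at least 0.8 in size and the base mean, the average normalized count of the 6 libraries, at least 20. Among all 11371 genes tested, 574 (5.05%) were called lower and 424 (3.73%) higher, and scaling by total counts in place of TMM changed this split to 264 lower and 1014 higher. With total-count scaling the median log2 fold change of all genes tested was 0.26, against 0.00 with TMM, and changes are given relative to the TMM median.

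The deleted gene was examined first. *Rnf40* (chr7:134732212-134747119 in mm9, plus strand) had 130, 126 and 142 normalized counts in control and 90.2, 90.4 and 94.2 in Rnf40ΔSC libraries. All Rnf40ΔSC libraries lay below all control libraries, in the direction of the labels. The log2 fold change was -0.54 (SE, the standard error of the fit, 0.14; adjusted p = 0.00243, edgeR), and with total-count scaling it was -0.27 (adjusted p = 0.116, edgeR, with a range of 0.00235 to 0.116 over the alternatives). The count covers the whole gene, of which the floxed alleles lose exons 3 and 4, and all cells of the nerve.

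Markers of the tissue were present in all libraries. *Sox10*, the transcription factor of the Schwann cell lineage, had 958, 1055 and 1084 normalized counts in control and 629, 574 and 592 in Rnf40ΔSC libraries. All Rnf40ΔSC libraries were below all control libraries. Of 5 Schwann cell markers, none of which was at 0, *S100b* and *Cdh19* were called lower by edgeR. That is 2 of the 5, against 5.05% of all genes tested. The median log2 fold change of these 5 was -0.79, with *Sox10* also at -0.79 (SE 0.09, adjusted p = 8.87e-09, edgeR). *Sox10* was close to the fold limit and passed it without control replicate 1 (-0.84), without Rnf40ΔSC replicate 1 (-0.81), for Rnf40ΔSC replicate 3 alone (-0.80) and with the muscle covariate described below (-0.84), and with total-count scaling it was at -0.52. Of 5 markers of myelinating Schwann cells, the structural genes *Pmp22*, *Mbp*, *Mag* and *Prx* were called lower, and *Egr2*, with 473, 515 and 437 normalized counts in control and 594, 527 and 705 in Rnf40ΔSC libraries, was above all control libraries in all Rnf40ΔSC libraries and was not called (log2 fold change 0.36, adjusted p = 0.00577, edgeR, with a range of 8.18e-06 to 0.0873 over the alternatives). The hepatocyte markers *Alb*, *Apoa1* and *Ttr*, which nerve should lack, had 0 to 4 counts per library.

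One marker list divided the Rnf40ΔSC libraries. The 11 skeletal muscle markers, with *Myh4* as the most abundant gene and none at 0, summed to 9053, 6808 and 5091 normalized counts in control libraries and to 195, 456 and 6059 in Rnf40ΔSC replicates 1, 2 and 3. Replicate 3 thus lay within the range of the control libraries and replicates 1 and 2 far below it. Of these 11 genes edgeR called 0, against 5.05% lower and 3.73% higher among all genes tested. DESeq2 also called 0 of the 11, and 0 had an unadjusted p under 0.05. Results for the tested early arm genes are therefore also given without replicate 3, and for replicate 3 alone against the controls, which assumes that the single library varies like the controls.

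The route begins with the joining of acetyl-CoA units. *Acat2* (chr17:13135756-13153613 in mm9, minus strand), the cytosolic thiolase that makes acetoacetyl-CoA, had 148, 168 and 169 normalized counts in control and 36.4, 48.2 and 23.1 in Rnf40ΔSC libraries. The groups did not overlap, and Rnf40ΔSC replicate 3 was the lowest library. *Acat2* was 4.66-fold lower in Rnf40ΔSC nerves (log2 fold change -2.22, SE 0.19, adjusted p = 1.61e-12, edgeR), with -1.96 without replicate 3 and -2.81 for replicate 3 alone. *Tcp1*, a chaperonin gene beside *Acat2* in mm9, was not called, at 0.11 (adjusted p = 0.45, edgeR, with a range of 0.0037 to 0.685 over the alternatives). For *Acat2* and the genes that follow, fewer Schwann cells and less RNA per cell cannot be told apart from counts of whole nerve alone.

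*Hmgcs1*, which encodes the cytosolic HMG-CoA synthase of the second reaction, was listed at 0 in all 6 libraries. A floor of 3 counts corresponds to 1.22 to 2.28 CPM in these libraries, and no fold change was computed. The symbol had no entry in the GENCODE vM1 annotation of mm9. Its promoter window printed above had 0 exact matches on the assembled chromosomes of mm9 and 2 on unplaced contigs, whereas each window of the other 5 genes had 1 match, on a chromosome. Only uniquely mapped reads had been counted. The labels list both mm9 and mm10, the matches in mm9 bear on the counts only if mm9 was used, and the cause of the listing at 0 was not tested.

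Mevalonate is phosphorylated 2 times and then decarboxylated. *Mvk* (chr5:114894278-114910600 in mm9, plus strand), mevalonate kinase, had 68.3, 82.8 and 67.1 normalized counts in control and 24.8, 20.5 and 32.7 in Rnf40ΔSC libraries. Every Rnf40ΔSC library was below every control library, and replicate 3 was the highest of its group. The log2 fold change of *Mvk* was -1.45 (SE 0.22, adjusted p = 1.18e-06, edgeR), with -1.65 without replicate 3 and -1.15 for replicate 3 alone. It lay close to the next gene, *Pmvk*, and their order turned without Rnf40ΔSC replicate 3 (*Pmvk* at -1.63) and without control replicate 3 (*Mvk* at -1.52, *Pmvk* at -1.45). *Mmab*, a gene of cobalamin metabolism that lies head to head with *Mvk* in mm9, was also called lower at -0.83 (SE 0.19, adjusted p = 0.000588, edgeR). It lost this call with total-count scaling (-0.56), with the DESeq2 prior (-0.76), without control replicate 2 (-0.68) and without Rnf40ΔSC replicate 3 (-0.80, under the limit).

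*Pmvk* (chr3:89263040-89272935 in mm9, plus strand), phosphomevalonate kinase, had 85.8, 123 and 124 normalized counts in control and 38.9, 32.6 and 43.1 in Rnf40ΔSC libraries. Control replicate 1 was lower than the other controls, and no Rnf40ΔSC library reached it. The log2 fold change was -1.54 (SE 0.19, adjusted p = 1.5e-08, edgeR), and it was -1.63 without replicate 3 and -1.39 for replicate 3 alone.

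*Mvd* (chr8:124957496-124967322 in mm9, minus strand), mevalonate diphosphate decarboxylase, had 103, 105 and 112 normalized counts in control libraries and 10.8, 6.03 and 7.98 in Rnf40ΔSC libraries. The controls were close to each other, and all Rnf40ΔSC libraries were near the low end of what could be counted, with 13, 5 and 10 counts. *Mvd* was 12.4-fold lower (log2 fold change -3.64, SE 0.28, adjusted p = 3.69e-15, edgeR), which gave it rank 4 of all 11371 genes tested when ordered from the most negative log2 fold change. It was at -3.58 without replicate 3 and at -3.72 for replicate 3 alone. Its 95% confidence interval of -4.21 to -3.06 did not reach the interval of any other tested gene of the early arm except that of *Fdft1*, although differences in fold change between genes were not tested. The whole of *Mvd* lies within *Gm20388*, a gene annotated on the opposite strand, and reads of both cannot be told apart where strand was not used in counting. The labels and the methods name different library kits, of which the latter is directional, so that the use of strand is uncertain here and for *Fdft1* below. *Cyba*, beside *Mvd*, was at -0.78 (adjusted p = 0.0346, edgeR, with a range of 0.0237 to 0.254 over the alternatives). *Cyba* was not called, but it passed the limits without Rnf40ΔSC replicate 3 (-0.87) and with the replicate number as a block (-0.81).

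*Idi1* (chr13:8884852-8891641 in mm9, plus strand) encodes the isomerase that balances the pair of 5-carbon isoprenoid diphosphates. It had 5, 10 and 11 counts in control and 2, 0 and 4 in Rnf40ΔSC libraries, too few for the filter on low counts. Every Rnf40ΔSC library was lower than every control library after scaling. The pooled 26 and 6 counts correspond to a 5.26-fold lower level in Rnf40ΔSC nerves (95% exact interval 2.12 to 15.6, which covers counting error only). Without the filter *Idi1* was at -2.32 (SE 0.78, adjusted p = 0.00482, edgeR), at a base mean of 5.51, under the limit for a call.

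The last 3 enzymes lead from the 5-carbon units to squalene epoxide. *Fdps* (chr3:88897514-88905881 in mm9, minus strand), farnesyl diphosphate synthase, had 92.1, 115 and 112 normalized counts in control and 19.9, 16.9 and 19.9 in Rnf40ΔSC libraries. The Rnf40ΔSC libraries were nearly equal and far below the controls. *Fdps* was 5.60-fold lower (log2 fold change -2.48, SE 0.22, adjusted p = 1.59e-12, edgeR), at -2.52 without replicate 3 and at -2.43 for replicate 3 alone. A U6 RNA gene annotated on the same strand overlaps *Fdps* over 104 bases, so that strand does not separate their reads.

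*Fdft1* (chr14:63763990-63796630 in mm9, minus strand) encodes squalene synthase, which commits farnesyl diphosphate to sterols. It had 326, 379 and 283 normalized counts in control and 53.8, 51.8 and 39.1 in Rnf40ΔSC libraries. The groups stood well apart. *Fdft1* was 6.85-fold lower (log2 fold change -2.78, SE 0.15, adjusted p = 2.31e-18, edgeR), with -2.62 without replicate 3 and -3.06 for replicate 3 alone. Over 769 bases it overlaps *Ctsb*, a cathepsin gene on the opposite strand, which was at -0.22 (SE 0.08, adjusted p = 0.041, edgeR) and turned to 0.04 with total-count scaling, with a range of adjusted p of 0.0259 to 0.71 over the alternatives.

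*Sqle* (chr15:59146632-59162747 in mm9, plus strand), squalene epoxidase, the first oxygen-dependent enzyme of the route, had the highest counts of the group. It had 629, 666 and 557 normalized counts in control and 193, 180 and 178 in Rnf40ΔSC libraries. The Rnf40ΔSC libraries differed little from each other and none came near the controls. *Sqle* was 3.35-fold lower (log2 fold change -1.75, SE 0.10, adjusted p = 1.31e-16, edgeR), with a confidence interval of -1.95 to -1.54, and was at -1.71 without replicate 3 and at -1.79 for replicate 3 alone.

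Of the 7 early arm genes tested, 7 were called lower in Rnf40ΔSC nerves, where 5.05% of all genes tested were called lower and 3.73% higher. By adjusted p alone it was also 7 of the 7, and 16.2% of all genes tested were lower and 15.5% higher. The remaining genes were *Hmgcs1*, listed at 0, and *Idi1*, under the filter. All Rnf40ΔSC libraries were below all control libraries for 7 of the 7, and for 21.6% of all genes tested, and they were above all control libraries for 0 of the 7 and for 22% of all. The median log2 fold change of the 7 was -2.22 and their range -3.64 to -1.45, whereas the median of all genes tested was 0.00. The 7 were also called with total-count scaling, where their median was -1.95, and with DESeq2. Without Rnf40ΔSC replicate 3 the median was -1.96, for replicate 3 alone -2.43 (-2.11 when *Idi1*, which passed the filter in that fit, is counted as well), and with the muscle marker level as a covariate -2.51, and 7 genes were called in each of these fits. The fit for replicate 3 alone and the covariate were chosen after seeing the data.

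Summed over the 9 genes, normalized counts were 1459, 1649 and 1433 in control and 379, 356 and 347 in Rnf40ΔSC libraries. The Rnf40ΔSC libraries lay close together, including replicate 3 with its high muscle markers. Divided by the count of *Sox10*, the sum was 1.52, 1.56 and 1.32 in control and 0.603, 0.620 and 0.586 in Rnf40ΔSC libraries. The groups remained apart on this scale. Adipocytes also make lipids, and their 7 markers, with *Fabp4* as the most abundant and none at 0, summed to 2287, 1689 and 2899 normalized counts in control and to 1805, 1659 and 1316 in Rnf40ΔSC libraries. These groups overlapped, 2 of the 7 adipocyte markers were called lower, and the part of adipocytes in the values of the early arm was not tested. Of the other cell types, 1 of 5 endothelial markers, 0 of 4 fibroblast markers and 1 of 3 tested macrophage markers were called lower by edgeR, and 1, 0 and 0 by DESeq2. Among all genes tested, edgeR called 5.05% lower. At an unadjusted p under 0.05 by edgeR, 5 of the Schwann cell, 4 of the adipocyte, 4 of the endothelial, 3 of the fibroblast and 3 of the macrophage markers were lower, as were 20.7% of all genes tested, with 20.3% higher.

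**Figure D2:**
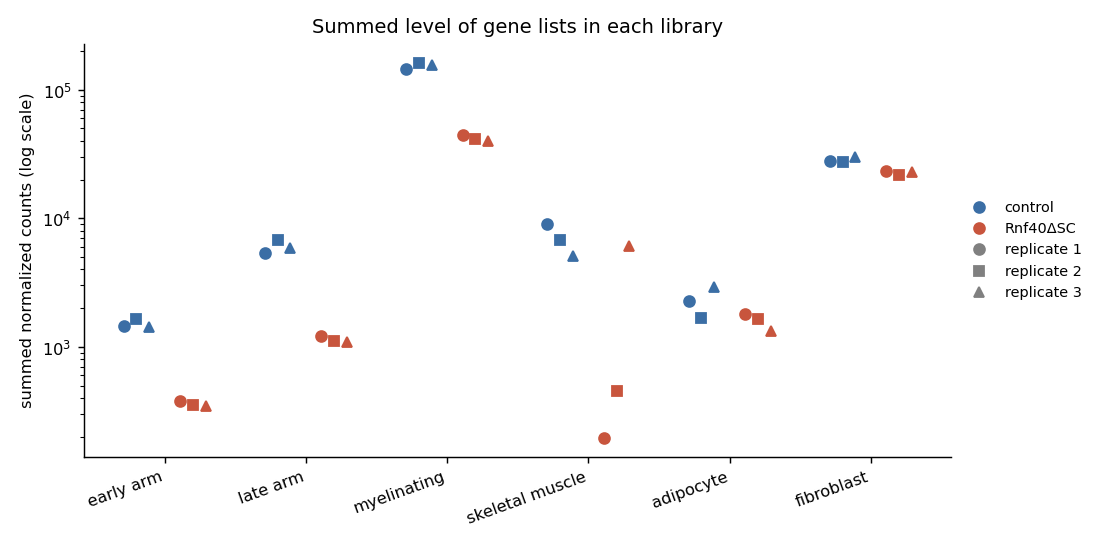
Summed normalized counts of gene lists in each library on a log scale, in control (blue) and Rnf40ΔSC (red) replicates 1, 2 and 3 (circle, square, triangle). The early arm sums lie between 347 and 379 in all Rnf40ΔSC libraries, whereas the skeletal muscle sums of the same libraries range from 195 to 6059.

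To compare levels between genes, CPM after TMM scaling were divided by the length of the exons in kilobases. On this scale control nerves had 59.3 ± 8.66 of *Fdft1* (SD, n = 3), 57.3 ± 5.14 of *Sqle* (SD, n = 3) and 44.5 ± 5.26 of *Fdps* (SD, n = 3). *Pmvk* followed with 37.7 ± 7.42, *Acat2* with 32.7 ± 2.40 and *Mvd* with 31.2 ± 1.36 (SD, n = 3 each). *Mvk* was at 14.0 ± 1.68 and *Idi1* lowest at 1.70 ± 0.27 (SD, n = 3 each). Control libraries of neighbours in this order overlapped for *Fdft1* and *Sqle* and along the run from *Fdps* to *Mvd*, but not between *Sqle* and *Fdps*, between *Mvd* and *Mvk* or between *Mvk* and *Idi1*.

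In Rnf40ΔSC nerves the order per kilobase was different. *Sqle* was highest at 17.0 ± 0.76 (SD, n = 3) and *Pmvk* next at 13.0 ± 1.81 (SD, n = 3). Then came *Fdft1* at 8.69 ± 1.44, *Fdps* at 7.89 ± 0.73 and *Acat2* at 7.27 ± 2.54 (SD, n = 3 each). *Mvk* at 5.01 ± 1.19 was above *Mvd* at 2.41 ± 0.70 (SD, n = 3 each), with no overlap between their libraries, which is the reverse of their order in control nerves. *Idi1* remained lowest at 0.29 ± 0.29 (SD, n = 3).

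These levels depend on how much of a gene can be reached by uniquely mapped reads. If reads were aligned to mm9, the following shares apply. Of the 50-base stretches of the longest coding transcript that occur in mm9, 100% occurred once for *Mvk*, *Pmvk*, *Mvd* and *Sqle*, but 81.2% for *Fdft1*, 55.4% for *Acat2*, 39.4% for *Fdps* and 17.9% for *Idi1*. The latter 4 genes share sequence with other places in the genome, and their counts are uncertain to that extent. When exon length was multiplied by this share, a choice made after seeing the data, control levels per kilobase were 113 for *Fdps*, 73.1 for *Fdft1*, 59.0 for *Acat2* and 9.46 for *Idi1*, so that *Fdps* moved to the first place of the order. In Rnf40ΔSC nerves the same choice also put *Fdps* first, at 20.02 ± 1.85, before *Sqle* at 17.0 ± 0.76 (SD, n = 3 each), and placed *Acat2* at 13.1 ± 4.58 just above *Pmvk* at 13.0 ± 1.81. The comparison of genotypes within a gene does not depend on length.

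**Figure D3:**
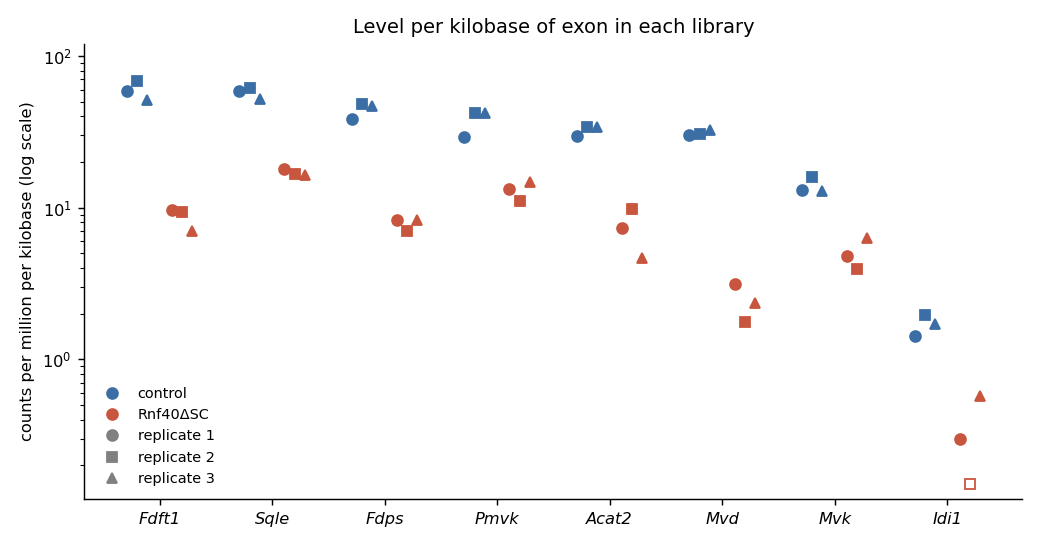
Level of 8 early arm genes per kilobase of exon in each library, ordered by the mean in control (blue, control; red, Rnf40ΔSC; log scale), with a hollow square at the lower edge for *Idi1* at 0 counts in Rnf40ΔSC replicate 2. *Mvd* is above *Mvk* in control and below it in Rnf40ΔSC libraries.

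The genes that supply cytosolic acetyl-CoA and acetoacetyl-CoA precede the early arm. All 4 of them were called lower, against 5.05% of all genes tested, with a median log2 fold change of -2.56 for the 4. *Aacs*, which activates acetoacetate, had 298, 535 and 549 counts in control and 82, 49 and 60 in Rnf40ΔSC libraries (log2 fold change -3.13, SE 0.13). *Acss2*, which activates acetate, and *Slc25a1*, the mitochondrial citrate carrier, had log2 fold changes of -2.83 and -2.29. *Acly*, the enzyme that cleaves citrate to acetyl-CoA, changed least of the 4 (95% confidence interval -1.21 to -0.79, adjusted p = 5.73e-10, edgeR), and at -0.73 with total-count scaling it was not called.

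The late arm converts squalene epoxide to cholesterol. Of its 10 genes 9 were called lower, against 5.05% of all genes tested, with a median log2 fold change of -2.66 for the 10. *Lss*, which cyclises squalene epoxide and so follows *Sqle* directly, had 103, 174 and 133 counts in control and 10, 14 and 10 in Rnf40ΔSC libraries. At -3.87 (SE 0.30, adjusted p = 3.06e-13, edgeR) its value was the most negative of both arms, although *Mvd* was more negative without Rnf40ΔSC replicate 1 (-3.86, with *Lss* at -3.70) and with the muscle covariate (-3.85, with *Lss* at -3.82). The demethylation genes *Cyp51*, *Msmo1*, *Nsdhl* and *Hsd17b7* had log2 fold changes from -3.11 to -2.46, and the reductase *Dhcr7* had -1.63. *Tm7sf2*, a sterol reductase with few counts, was at -2.77 and was not called without control replicate 2 (-2.64) or without control replicate 3 (-2.80). The exception was *Ebp*, a sterol isomerase, with a log2 fold change of -0.74 (SE 0.22, adjusted p = 0.00932, edgeR), which passed the fold limit only without control replicate 1 (-0.86) or control replicate 3 (-0.81), with the muscle marker level as a covariate (-0.90) and for Rnf40ΔSC replicate 3 alone (-0.90). *Ebp* was at -0.47 with total-count scaling and at -0.52 without control replicate 2, and its adjusted p ranged from 0.00591 to 0.132 over the alternatives.

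Farnesyl diphosphate and its precursors also feed prenylation, dolichol and ubiquinone synthesis. Of 11 tested genes of these branches 0 were called by edgeR or DESeq2. Among all genes tested, edgeR called 5.05% lower and 3.73% higher, so that 0 of 11 lies near these shares. At an unadjusted p under 0.05 by edgeR 1 of the 11 was lower and 1 was higher, against 20.7% and 20.3% of all genes tested. The median log2 fold change of the 11 was 0.07, and their range was -0.37 for *Icmt* to 0.45 for *Dhdds*. *Ggps1*, which extends farnesyl diphosphate by a further unit, had 27, 57 and 61 counts in control and 77, 58 and 92 in Rnf40ΔSC libraries (log2 fold change 0.37, SE 0.19, adjusted p = 0.123, edgeR, with a range of 0.00519 to 0.334 over the alternatives). Its values after scaling did not overlap between the genotypes, and with total-count scaling it was at 0.64. *Pdss1* and *Pdss2* had too few counts to be tested. With total-count scaling the sign of *Nus1*, *Fntb* and *Pggt1b* turned from negative to positive.

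Some relatives of the early arm enzymes were also examined. *Acat1*, the mitochondrial thiolase, had 215, 223 and 354 counts in control and 373, 272 and 337 in Rnf40ΔSC libraries, and its groups overlapped after scaling. *Acat1* was not called (log2 fold change 0.03, SE 0.11, adjusted p = 0.866, edgeR). It was at 0.29 with total-count scaling, and it turned to -0.10 with the muscle covariate, to -0.13 for Rnf40ΔSC replicate 3 alone, to -0.098 without control replicate 2 and to -0.025 without Rnf40ΔSC replicate 2. *Oxct1*, a mitochondrial transferase, was at -0.17 (adjusted p = 0.214, edgeR), which turned to 0.10 with total-count scaling. *Acat3* had 2 counts in all and *Idi2* had 0, so that the close copies of *Acat2* and *Idi1* were at or under the floor of 3 counts. Only uniquely mapped reads had been counted, and reads that a copy shares with other places would be missing. Low counts therefore do not show that these copies were silent.

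Sterol sensing adjusts the activity of the SREBPs that control these genes. Of 9 tested genes 2 were called lower, against 5.05% of all genes tested, and the median log2 fold change of the 9 was -0.44. Among the 2 called genes was *Insig1*, which retains the SREBP complex in the endoplasmic reticulum and is itself an SREBP target. *Insig1* had 244, 361 and 413 counts in control and 90, 88 and 69 in Rnf40ΔSC libraries (log2 fold change -2.31, SE 0.15). The transcription factor genes changed less. *Srebf2*, the SREBP gene most tied to cholesterol synthesis, had 176, 299 and 374 counts in control and 266, 141 and 359 in Rnf40ΔSC libraries (log2 fold change -0.44, SE 0.14, adjusted p = 0.0253, edgeR), and its groups overlapped. The value of *Srebf2* was -0.65 without Rnf40ΔSC replicate 3, -0.29 without Rnf40ΔSC replicate 2, -0.12 for Rnf40ΔSC replicate 3 alone, -0.18 with total-count scaling and -0.18 with the muscle covariate, and its adjusted p ranged from 1.13e-05 to 0.582. *Srebf1* was at 0.09 (SE 0.13, adjusted p = 0.622, edgeR), and at 0.36 with total-count scaling (adjusted p = 0.0255, edgeR, with a range of 0.0255 to 0.89 over the alternatives). *Stard4*, a sterol carrier, had a log2 fold change of -1.89 and a base mean of 17.7, under the limit for a call, which it passed without Rnf40ΔSC replicate 2 (-1.88) and for Rnf40ΔSC replicate 3 alone (-2.26). *Mbtps2*, a protease that cleaves SREBPs, was at -0.71 (adjusted p = 0.00523, edgeR, with a range of 0.00221 to 0.179 over the alternatives). *Mbtps2* was called without control replicate 3 (-0.88) or Rnf40ΔSC replicate 3 (-0.83), and it was at -0.45 with total-count scaling, at -0.49 with the muscle covariate and at -0.49 for Rnf40ΔSC replicate 3 alone.

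**Figure D4:**
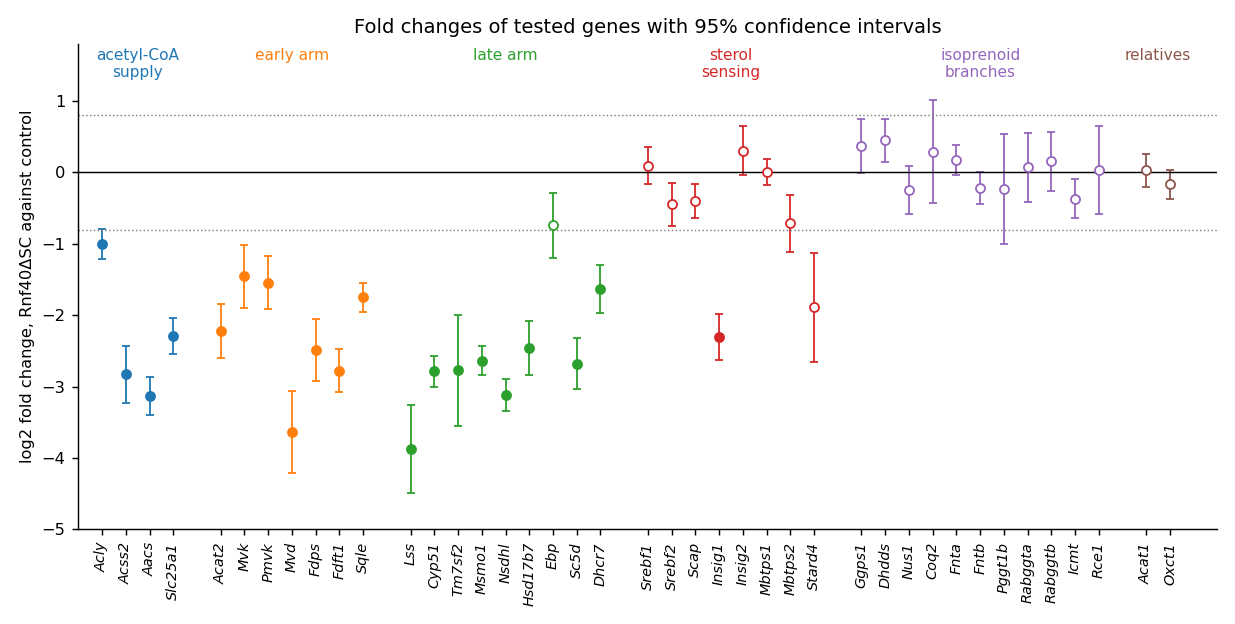
Log2 fold changes of Rnf40ΔSC against control libraries for tested genes of the early arm and of the lists around it that the text reports, with 95% confidence intervals, filled points for called genes and dotted lines at the fold limit of 0.8 in either direction. The genes of acetyl-CoA supply and of both arms lie below 0, with *Ebp* as the least negative, whereas the isoprenoid branch genes lie between -0.37 and 0.45.

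Profiles across the 6 libraries were compared by the root-mean-square distance between log2 CPM, each centred on the mean of the 6, and the mean profile of the 7 tested early arm genes. Among the 9329 other genes past the base mean limit, *Drp2* was nearest with a distance of 0.028. *Drp2* encodes a dystrophin-related protein that links the Schwann cell membrane to periaxin. *Pmp22*, which encodes a protein of compact myelin, had rank 2 at 0.061, and *5930403L14Rik* had rank 5 at 0.087. *Drp2* had 2223, 3576 and 4239 counts in control and 1036, 648 and 998 in Rnf40ΔSC libraries, with a log2 fold change of -2.18. Of the early arm genes themselves, *Fdps* was nearest to the mean profile at 0.12 and *Mvd* farthest at 0.64. The named genes outside the early arm thus lay nearer to this mean than any of its genes. The mean profile was at 0.99 to 1.21 in control and at -1.16 to -0.99 in Rnf40ΔSC libraries. The distance therefore mostly reflects the size of the difference between genotypes, and it shows no variation shared with the early arm in particular.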

How the data were processed

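Gene counts of 6 libraries, each from a pool of 3 sciatic nerves at postnatal day 14, were used as deposited. Per the labels, the authors aligned reads with Bowtie2 2.1.0 and counted them per gene with HTSeq, with both mm9 and mm10 listed as builds, whereas the methods of the study name TopHat and mm9. The annotation and the strand setting of the counting were not given in either.

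Counts were scaled by TMM, filtered with filterByExpr and tested with the robust quasi-likelihood F test of edgeR 4.0.16 in R 4.3.3, with genotype as the only term and p adjusted over all genes tested by the Benjamini-Hochberg method. The early arm genes and the lists around them were chosen with earlier results of these data known. The genes named are the early arm, the genes of the lists that carry a count, *Rnf40* and the 5 nearest profiles, of which some are not reported here. *Mmab*, *Tcp1*, *Cyba* and *Ctsb*, which lie beside or overlap an early arm gene, and the marker genes given with a fold change were singled out after their values were seen. Standard errors come from the fit. The confidence interval of pooled counts is exact, and a floor of 3 counts was used for genes at 0.

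Alternatives were RLE and total-count scaling, DESeq2 1.42.0 with and without its fold-change prior, no filter, at least 10 counts in every library, leaving out single libraries, a block for replicate number, the adjusted p limit alone, and another gene length. Added after seeing the data were the muscle marker level as a covariate, Rnf40ΔSC replicate 3 alone, and exon length times the share of stretches found once. The test script was tested on simulated data. Exon lengths and positions came from GENCODE vM1, and Python 3.11.15, numpy 2.4.6, pandas 2.3.3 and matplotlib 3.10.9 were used for sequences and plots. Raw reads were not analysed here.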

Additional observations from a re-analysis of the deposited data

How the results depend on the processing

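The 7 tested early arm genes were called lower under every alternative in which they were tested, with 6 of 6 under a limit of at least 10 counts in every library. Their median log2 fold change was -1.95 with total-count scaling, -2.06 with the fold-change prior of DESeq2, -1.97 over 6 genes with at least 10 counts in every library and, with the muscle marker level as a covariate chosen after seeing the data, -2.51. Leaving out 1 library at a time gave -2.42 to -1.96 for this median, 553 to 701 genes lower, 377 to 475 higher, 8 to 10 of the late arm and 2 to 3 of sterol sensing. Total-count scaling gave 264 genes lower and 1014 higher, and adjusted p alone gave 1841 and 1757, with 6 genes of sterol sensing and 1 of the isoprenoid branches lower and 1 higher. The order of levels changed for 4 genes with the longest transcript and for 5 with the share of stretches found once. Directions turned for genes near 0. With total-count scaling *Nus1* was at 0.028, *Fntb* at 0.047, *Pggt1b* at 0.036, *Ctsb* at 0.044 and *Oxct1* at 0.10. With the muscle covariate *Mbtps1* was at -0.011, *Fnta* at -0.066 and *Acat1* at -0.10, and for Rnf40ΔSC replicate 3 alone *Fnta* was at -0.10, *Rce1* at -0.10 and *Acat1* at -0.13. Leaving out 1 library gave ranges of -0.010 to 0.045 for *Mbtps1*, -0.033 to 0.67 for *Coq2*, -0.44 to 0.15 for *Pggt1b*, -0.14 to 0.38 for *Rabggta*, -0.21 to 0.26 for *Rce1* and -0.10 to 0.13 for *Acat1*. The cause was not tested. With the replicate number as a block 572 genes were lower and 416 higher. The 7 early arm genes were called in that fit with a median of -2.21, and *Cyba* was called at -0.81. Deviations of libraries with the same number correlated at -0.09, -0.02 and -0.06, and those with different numbers at -0.03 to 0.10. With 3 libraries per group these correlations cannot decide whether libraries of the same number share more than the number. Floors and exact intervals cover counting error only, groups of 3 pools leave the spread between animals unmeasured, and genes with few counts such as *Idi1* are limited by depth.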
